A study of Mus musculus with 7 samples.

Results

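The genes of GABA synthesis, packaging, reuptake and breakdown were followed through cell types of the mouse cortex. The 5 genes, *Gad1*, *Gad2*, *Slc32a1*, *Slc6a11* and *Abat*, were chosen by name from 25871 gene columns, by a rule that uses no measured value. Their RNA was read in single nuclei of the visual cortex, and the accessibility of the chromatin around them was read in nuclei of SST, PV and VIP interneurons.

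GABA is the main inhibitory transmitter of the cortex. It is made from glutamate by the decarboxylases GAD67, encoded by *Gad1*, and GAD65, encoded by *Gad2*, and is loaded into synaptic vesicles by the vesicular transporter VGAT, encoded by *Slc32a1*. After release it is taken back up by transporters of the plasma membrane, among them GAT-3, encoded by *Slc6a11* and known from astrocytes, and it is broken down in mitochondria by GABA transaminase, encoded by *Abat*.

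The nuclear RNA came from 1 sample, the V1 region of C57BL/6J mice aged 6 to 10 weeks that had received the SST PESCA AAV9 library, a pool of viral reporters. It was sequenced as 10 inDrops libraries in 2 sets of 5, and the labels give no animal for a library. Per the methods, the nuclei came from 2 animals with 5 libraries each. The ATAC-Seq samples came from whole cortex of uninjected mice aged 6 to 12 weeks, 2 samples per group, in which Sst-IRES-Cre (SST), Pv-Cre (PV) or Vip-IRES-Cre (VIP) switched on the SUN1-2xsfGFP-6xMYC nuclear tag. All groups carried the tag and a Cre driver, so that a group holds nuclei in which its driver was or had been active, and the labels give each sample as male while the protocol names both sexes.

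All 5 genes lie on the + strand of GRCm38 (mm10), in GENCODE M21 coordinates. *Gad2* spans chr2:22622205-22693874, *Gad1* chr2:70553072-70602014, *Slc32a1* chr2:158610767-158615748, *Slc6a11* chr6:114131241-114249952 and *Abat* chr16:8513429-8621568. RefSeq promoters, from 250 bases before to 50 after the start, were at hand for 4 of the 5 genes and are printed because each one lies inside an ATAC region described below. The first 3 belong to the genes that mark GABA neurons and the fourth to the astrocyte transporter. Capitals mark the words found among 9 short words searched on both strands. These were the TATA box word TATAAA, the CCAAT box word CCAAT, the GC box word GGGCGG, the E-box words CAGCTG and CACGTG, the homeodomain word TAATTA, the AP-1 word TGANTCA and the cyclic AMP response word TGACGTCA. The RFX half-site word GTTGCC was added after the regions of *Abat* had been read. No match overlapped another.
*Gad1*, chr2:70561879-70562178, +: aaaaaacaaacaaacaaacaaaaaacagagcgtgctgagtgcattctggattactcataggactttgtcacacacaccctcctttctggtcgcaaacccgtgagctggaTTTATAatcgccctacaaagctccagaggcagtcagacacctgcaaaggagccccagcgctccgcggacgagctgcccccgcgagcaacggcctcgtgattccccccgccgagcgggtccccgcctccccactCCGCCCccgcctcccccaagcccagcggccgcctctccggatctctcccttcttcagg
*Gad2*, chr2:22622077-22622376, +: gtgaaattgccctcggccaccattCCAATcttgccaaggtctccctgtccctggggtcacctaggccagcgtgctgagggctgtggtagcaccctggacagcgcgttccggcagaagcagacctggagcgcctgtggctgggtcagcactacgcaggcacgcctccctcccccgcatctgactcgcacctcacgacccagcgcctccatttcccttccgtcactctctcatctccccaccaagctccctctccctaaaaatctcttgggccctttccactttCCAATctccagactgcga
*Slc32a1*, chr2:158610508-158610807, +: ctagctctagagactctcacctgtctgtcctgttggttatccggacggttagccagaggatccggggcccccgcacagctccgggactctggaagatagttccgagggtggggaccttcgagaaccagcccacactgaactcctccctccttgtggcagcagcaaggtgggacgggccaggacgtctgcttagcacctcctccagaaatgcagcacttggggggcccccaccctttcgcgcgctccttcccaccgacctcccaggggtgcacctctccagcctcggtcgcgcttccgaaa
*Slc6a11*, chr6:114130991-114131290, +: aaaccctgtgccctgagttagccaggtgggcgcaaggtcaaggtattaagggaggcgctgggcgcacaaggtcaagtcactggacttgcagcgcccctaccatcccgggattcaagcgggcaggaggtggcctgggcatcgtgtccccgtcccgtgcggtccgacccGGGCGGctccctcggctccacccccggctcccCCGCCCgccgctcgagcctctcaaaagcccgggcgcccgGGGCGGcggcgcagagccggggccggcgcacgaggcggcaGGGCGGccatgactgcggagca

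The GC content of the promoters was 60.0% in *Gad1*, 61.3% in *Gad2*, 63.3% in *Slc32a1* and 72.3% in *Slc6a11*, against a median of 52.7% over 32851 RefSeq promoters, which places them at the 70.5, 73.8, 78.4 and 93.5 percentiles. The *Gad1* promoter held TATAAA, in reverse, at position -141 from the start site, a word found in 13.6% of promoters, and GGGCGG once. The *Gad2* promoter held CCAAT at positions -226 and 32 from the start (37.4% of promoters hold the word). The *Slc6a11* promoter held GGGCGG 4 times, a word found in 35.7% of promoters, and the *Slc32a1* promoter held none of the 9 words.

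Of 47348 barcodes in the RNA tables, 32335 held more than 200 UMIs of cellular genes and were kept as nuclei, 2457 to 3629 per library. Nuclei were gated without use of the 5 genes, by at least 2 UMIs of *Sst*, *Pvalb*, *Vip* or *Npy* (the last in nuclei with no UMI of the other 3) or of a panel of excitatory, astrocyte, oligodendrocyte, oligodendrocyte precursor (OPC), microglial or vascular genes. The 20614 nuclei that passed exactly 1 gate were used, and 2856 that passed more than 1 gate and 8865 that passed none were left out. There were 617 Sst-gated, 216 Pvalb-gated, 330 Vip-gated, 273 Npy-gated, 15674 excitatory, 1514 astrocyte, 1178 oligodendrocyte, 201 OPC, 350 microglial and 261 vascular nuclei. The median depth was 1300.5 UMIs in Pvalb-gated nuclei, 589 in Vip-gated, 716 in Sst-gated, 832 in Npy-gated, 984 in excitatory and 346.5 in astrocyte nuclei.

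Further markers, not used in the gates, were highest in the matching gate for most of those read. Sst-gated nuclei were highest for 4 of 5 markers (*Lhx6*, *Nxph1*, *Elfn1*, *Grin3a*), Vip-gated for 4 of 5, Pvalb-gated for 2 of 6 and among the top 2 gates for 5 of 6, and astrocyte nuclei for 3 of 3. Excitatory nuclei were highest for 2 of 4, while *Rorb* (1.16 against 1.58) and *Foxp2* (0.680 against 0.762) were higher in astrocyte nuclei. Npy-gated nuclei were highest for 2 of 7, *Lamp5* and *Ndnf*, but held 0 UMIs of *Reln* and 1 UMI of *Calb2*. They are called here by their gate. The genes of the gates themselves were low elsewhere by construction, since nuclei that passed more than 1 gate were left out, and their levels are no check of the gates. The summed level of the 9 excitatory gate genes was 1.88 to 3.23 UMIs per 10000 in the 4 interneuron gates and 46.2 in excitatory nuclei, and that of the 9 astrocyte gate genes was 0.538 to 1.15 in the interneuron gates, 0.805 in excitatory nuclei and 234 in astrocyte nuclei. In Pvalb-, Vip- and Npy-gated nuclei 1 of the 9 excitatory gate genes was at 0 in each, and in the interneuron gates 1 to 4 of the 9 astrocyte gate genes were.

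Libraries shared barcodes. Libraries of a set with neighbouring numbers had 339 to 821 nuclear barcodes in common in each of 8 pairs, and 89.1% of the 1437 shared barcodes that were gated in both fell in the same gate. Other pairs of a set shared 83 to 210 and pairs across sets 51 to 95, with 68.6% and 60.4% in the same gate. Excitatory nuclei were 15674 of the 20614 gated nuclei, so that unrelated nuclei would often fall in the same gate. The share expected by chance was not computed. In all, 11945 nuclei (36.9%) carried a barcode found in more than 1 library, and the main ratios below are therefore also given without them.

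The level of a gene is its UMIs per 10000 cellular UMIs in all nuclei of a gate. The labels hold 1 sample and tie no library to an animal, so that gates were compared without a test and no p is given. Intervals are exact 95% Poisson intervals that cover counting error only, and the 10 libraries show a spread that holds technical differences and may hold those between the animals.

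The synthesis genes *Gad1* and *Gad2* were both high in the 4 interneuron gates, but in different orders. *Gad1* was highest in Pvalb-gated nuclei, at 29.3 UMIs per 10000 (27.3 to 31.3, 840 UMIs), where the libraries ran from 16.4 through a median of 26.5 to 50.5. Npy-gated nuclei had 28.2 (libraries 16.4, 27.8 and 36.7 as lowest, median and highest). The 2 gates overlapped in counting interval and in library range, and Pvalb-gated nuclei were the higher in 4 of 10 libraries. Vip-gated nuclei had a *Gad1* level of 20.2 (libraries 16.6, 19.8 and 29.0).

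Sst-gated nuclei stood apart, with a *Gad1* level of 10.4 (9.59 to 11.4, 542 UMIs) and libraries from 4.72 through 10.1 to 14.5. All 10 libraries lay below the lowest library of the Vip-gated nuclei, and in all 10 the Sst-gated level was under the Vip-gated one. Against the other 3 interneuron gates pooled, the ratio was 0.398 (0.362 to 0.438), which is 2.51-fold lower, 0.351 in library set 1 and 0.441 in set 2. It was 0.408 without nuclei whose barcode occurred in another library. Among 8824 genes with enough UMIs (20 over both sides), 6.49% were at least 2-fold lower in Sst-gated nuclei, and *Gad1* was the only one of the 4 members tested that was.

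*Gad2* had its peak in Npy-gated nuclei, at 22.7 UMIs per 10000 (20.9 to 24.7, 555 UMIs), with libraries at 18.7, 22.02 and 28.7. Every library there was above every library of the next gate. Sst-gated nuclei followed at 11.1 (libraries 8.45, 10.7 and 14.0) and Vip-gated nuclei at 10.1 (5.23, 10.6 and 15.3), the 2 overlapping, with the Sst-gated level higher in 5 of 10 libraries. Pvalb-gated nuclei were lowest of the 4, at 7.24 (2.82, 8.07 and 13.4).

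The Npy-gated level of *Gad2* was 2.32-fold (2.09 to 2.58) that of the other interneuron gates and higher in 10 of 10 libraries, and 2.50-fold without shared barcodes. Of 8824 genes, 5.36% were at least 2-fold higher in Npy-gated nuclei, and *Gad2* was the only one of the 4 members tested that was. The Pvalb-gated level of *Gad2* was 0.528 of that in the other interneuron gates and lower in all 10 libraries.

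**Figure D1:**
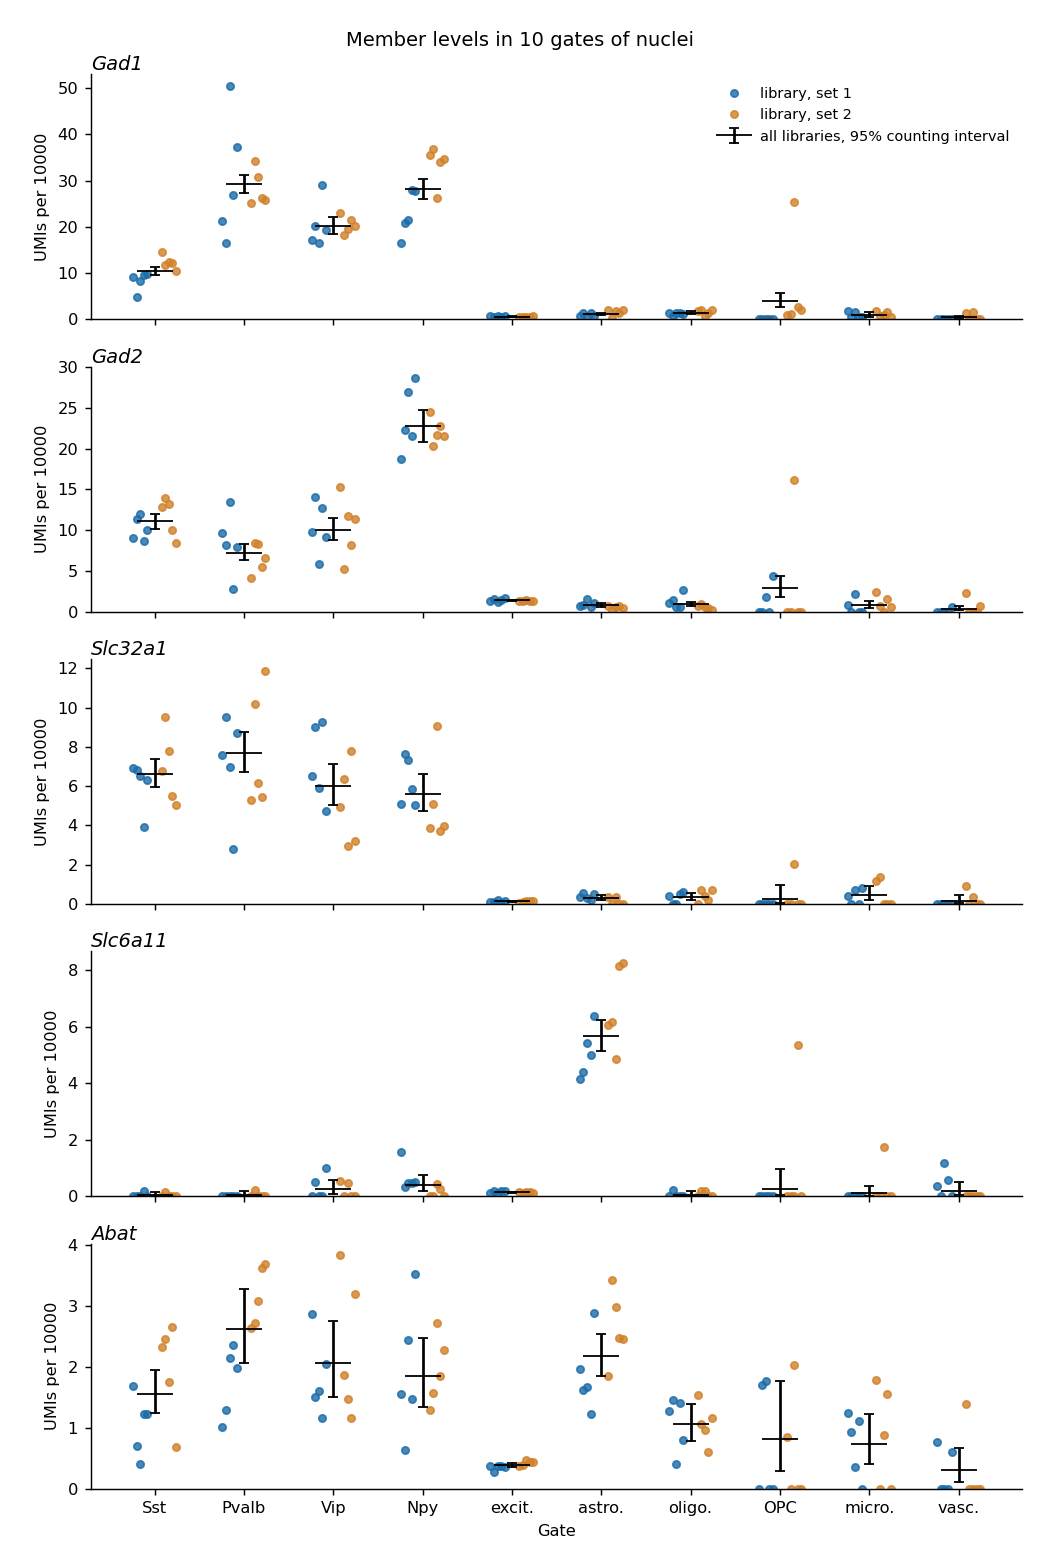
UMIs per 10000 cellular UMIs (vertical axes, each with its own scale) of the 5 genes in 10 gates of nuclei. Points are single libraries of set 1 (blue) and set 2 (orange), bars are all libraries with the 95% counting interval. *Gad1*, *Gad2* and *Slc32a1* are high in the 4 interneuron gates and *Slc6a11* in the astrocyte gate. *Abat* is highest in both, with the oligodendrocyte gate next. The single high OPC points of *Gad1* and *Gad2* are from library 2-3.

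The balance of the decarboxylases differed between the gates. A ratio of UMIs of 2 genes depends on their lengths and capture, so only its change from gate to gate is read. *Gad1* UMIs per *Gad2* UMI were 4.04 (3.47 to 4.72) in Pvalb-gated nuclei, 2.01 (1.71 to 2.37) in Vip-gated, 1.24 (1.11 to 1.39) in Npy-gated and 0.944 (0.838 to 1.06) in Sst-gated nuclei. The libraries ran from 2.00 to 9.50 in Pvalb-gated and from 0.417 to 1.24 in Sst-gated nuclei, without overlap.

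The same UMIs were also read nucleus by nucleus, at median depths of 1300.5 UMIs in Pvalb-gated and 716 in Sst-gated nuclei. Of 216 Pvalb-gated nuclei, 35.2% held *Gad1* UMIs without *Gad2* and 4.63% *Gad2* without *Gad1*, while of 617 Sst-gated nuclei the shares were 18.5% and 19.8%. In nuclei with more than 500 UMIs they were 35.9% and 4.10% of 195 Pvalb-gated and 20.7% and 20.7% of 415 Sst-gated nuclei. After thinning to 300 UMIs, *Gad1* was found in 51.9% of 210 Pvalb-gated nuclei, 56.0% of 250 Npy-gated, 41.1% of 287 Vip-gated and 25.5% of 518 Sst-gated nuclei. Without thinning these shares were 79.6%, 71.8%, 59.7% and 42.9%. In astrocyte nuclei, which should lack *Gad1*, the share was 2.97%, and 2.15% after thinning.

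**Figure D2:**
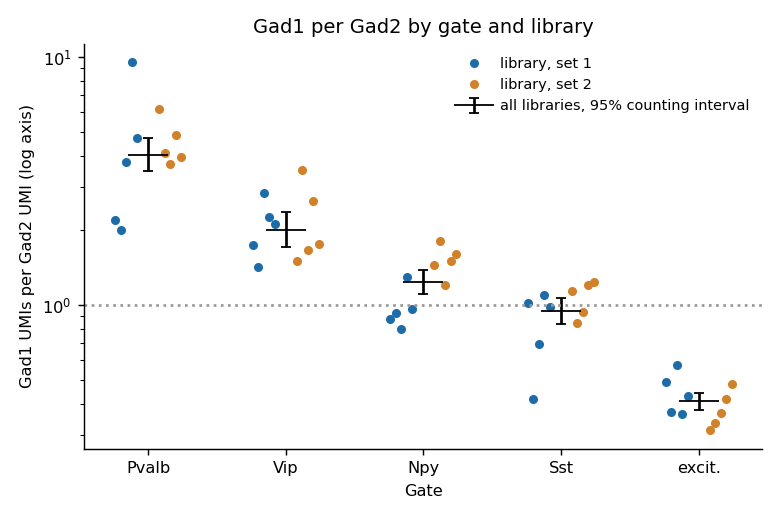
*Gad1* UMIs per *Gad2* UMI (log axis) in 4 interneuron gates and in excitatory nuclei. Points are libraries by set, bars all libraries with the 95% counting interval. Values fall from 4.04 in Pvalb-gated to 0.944 in Sst-gated nuclei, and all 10 libraries of the excitatory gate lie below 1.

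Among the Sst-gated nuclei, those that also held an *Npy* UMI (317 nuclei) had *Gad2* at 12.4 (11.2 to 13.7) and *Gad1* at 11.4 (10.2 to 12.6). Those with no *Npy* UMI (300 nuclei) had 9.003 (7.75 to 10.4) for each gene. Median depth differed between them, at 926 and 560 UMIs, and its part in the difference was not tested. Both groups of Sst-gated nuclei stayed below the Npy-gated levels of either gene.

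*Slc32a1*, which fills the vesicles, was far more even across the interneurons. It was at 7.70 (6.72 to 8.78) in Pvalb-gated, 6.63 (5.95 to 7.37) in Sst-gated, 6.01 (5.04 to 7.12) in Vip-gated and 5.61 (4.71 to 6.63) in Npy-gated nuclei. Library ranges overlapped between each pair of neighbours in this order. The lowest, median and highest libraries were 2.82, 7.30 and 11.9 in Pvalb-gated and 3.70, 5.08 and 9.05 in Npy-gated nuclei. *Gm14204*, a transcript on the opposite strand that ends just upstream of *Slc32a1*, had 0.314 to 0.655 in the interneuron gates and 0.0403 in excitatory nuclei, and whether counting used strand is not given in the sources used here.

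The 3 genes of synthesis and packaging were low in excitatory nuclei. Pooled over the 4 interneuron gates, *Gad1* was 19.8 against 0.556 in excitatory nuclei, a ratio of 35.6 (33.0 to 38.4) that ran from 22.2 to 54.4 over the libraries. *Slc32a1* was 6.57 against 0.129, a ratio of 51.1 (44.0 to 59.5), 31.6 to 83.0 over the libraries. *Gad2* was 12.3 against 1.36, a ratio of 9.03 (8.47 to 9.63), 7.42 to 12.2 over the libraries. Without shared barcodes the ratios were 39.9, 60.3 and 9.29. With the nuclei of more than 1 gate put back into each gate they passed, they were 17.1, 20.7 and 6.51.

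*Gad2* had the smallest of the 3 ratios, and excitatory nuclei held more of its UMIs than of *Gad1*, 2323 against 951. *Gad1* UMIs per *Gad2* UMI were 0.409 (0.379 to 0.442) in excitatory nuclei and below 1 in all 10 libraries (0.313 to 0.571). In the 15013 barcodes with 200 or fewer UMIs the ratio was 2.02 (1.75 to 2.34), and in the 4 interneuron gates together 1.61 (1.51 to 1.72). *Gad2* UMIs without *Gad1* were found in 11.1% of the excitatory nuclei and *Gad1* without *Gad2* in 2.83%. No single excitatory nucleus held more than 1.16% of the gate's *Gad2* UMIs. The *Gad2* level of 1.36 in excitatory nuclei was itself under the 1.55 (1.38 to 1.75) of the barcodes with 200 or fewer UMIs. So were those of *Gad1* (0.556 against 3.14), *Slc32a1* (0.129 against 0.670), *Slc6a11* (0.144 against 0.720) and *Abat* (0.387 against 0.725). A part of free RNA or of 2 nuclei under 1 barcode in these levels was not tested. In subsets of the excitatory nuclei the *Gad2* level was 1.37 (1.21 to 1.56) with a UMI of *Cux2*, 1.15 (0.995 to 1.31) with *Rorb* and 0.976 (0.811 to 1.16) with *Foxp2*.

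*Slc6a11* was high in astrocytes and in no other gate. Its level was 5.68 (5.14 to 6.25, 417 UMIs) in astrocyte nuclei, with libraries from 4.16 through 5.74 to 8.26, and 0.144 (0.127 to 0.164) in excitatory nuclei. The ratio was 39.3 (33.5 to 46.2), 24.6 to 78.9 over the libraries and 44.0 without shared barcodes. It was 21.9 in nuclei with more than 500 UMIs and 10.7 with nuclei put back into each gate they passed. The next gate, Npy-gated nuclei, stood at 0.410 on 10 UMIs, and Sst- and Pvalb-gated nuclei held 2 UMIs and 1 UMI, under the 3 counts set as a floor. A *Slc6a11* UMI was found in 19.9% of astrocyte nuclei and 1.41% of excitatory nuclei, at median depths of 346.5 and 984 UMIs.

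*Abat*, the enzyme that breaks GABA down, was highest in interneurons and astrocytes, with lower levels in other glia. It stood at 2.61 (2.05 to 3.27) in Pvalb-gated nuclei, 2.18 (1.85 to 2.54) in astrocyte, 2.06 (1.51 to 2.75) in Vip-gated, 1.84 (1.34 to 2.47) in Npy-gated and 1.56 (1.24 to 1.94) in Sst-gated nuclei. No neighbours in this order were separated beyond their counting intervals or library ranges. Oligodendrocyte nuclei came next, at 1.06, and overlapped Sst-gated nuclei in both. OPC nuclei had 0.814 and microglial nuclei 0.729, where barcodes with 200 or fewer UMIs had 0.725. The lowest, median and highest libraries were 1.01, 2.49 and 3.68 in Pvalb-gated, 1.22, 2.21 and 3.41 in astrocyte and 0.281, 0.380 and 0.465 in excitatory nuclei. The ratio to excitatory nuclei (0.387) was 5.01 (4.31 to 5.80) for the interneurons and 5.62 (4.70 to 6.69) for astrocytes, above 1 in 10 of 10 libraries for each. Without shared barcodes they were 4.58 and 6.17, and with nuclei put back into each gate 3.76 and 2.57.

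Against excitatory nuclei, 4 of the 5 members were at least 2-fold higher in interneurons, where 8.02% of 15895 genes were. In astrocytes 3 of 5 were, where 16.3% of 15884 genes were. The third of these, *Slc32a1*, rested on 21 UMIs, with a ratio of 2.22 (1.35 to 3.48) that was 3.15 in set 1 and 1.02 in set 2. *Slc32a1* in astrocytes, at 0.286, was under the 0.670 of barcodes with 200 or fewer UMIs, as was *Gad1*, at 1.09 against 3.14. The part of free RNA in these astrocyte levels was not tested.

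Of 16 further genes of GABA and glutamine handling, 14 had at least 20 UMIs in each of these comparisons. In interneurons 4 were at least 2-fold higher than in excitatory nuclei, among them 3 named next. *Aldh5a1*, which oxidises the product of GABA transaminase, was 2.07-fold higher, *Slc38a1*, a glutamine transporter, 2.49-fold and *Pdxk*, which makes the cofactor of the decarboxylases, 2.70-fold. Of the 3 that were at least 2-fold lower, *Slc38a3* and *Maob* rested on 1 UMI each in interneurons. The background of 2-fold lower genes was 14.5%. The median log2 ratio of the 14 genes was 0.42 and that of the 5 members 3.18, against -0.03 over all genes.

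In astrocytes 8 of the 14 were at least 2-fold higher than in excitatory nuclei, among them *Slc38a3* at 213-fold (157 to 295), *Glul*, the glutamine synthetase, at 24.7-fold and *Glud1*, glutamate dehydrogenase, at 12.5-fold. *Maob*, a monoamine oxidase, was 22.6-fold higher, *Slc38a2*, a glutamine transporter, 5.22-fold and *Aldh5a1* 2.34-fold. *Slc6a13*, the GABA transporter GAT-2, was 54.7-fold higher (31.8 to 97.5) on 47 UMIs in astrocytes, which were above 0 in only some of the libraries. Of the 14, 2 were at least 2-fold lower, among them *Gls2*, a glutaminase, at 0.0957, and 32.4% of all genes were at least 2-fold lower. The median log2 ratio was 1.80 for the 14 genes and 1.15 for the members, against -0.23 over all genes.

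**Figure D3:**
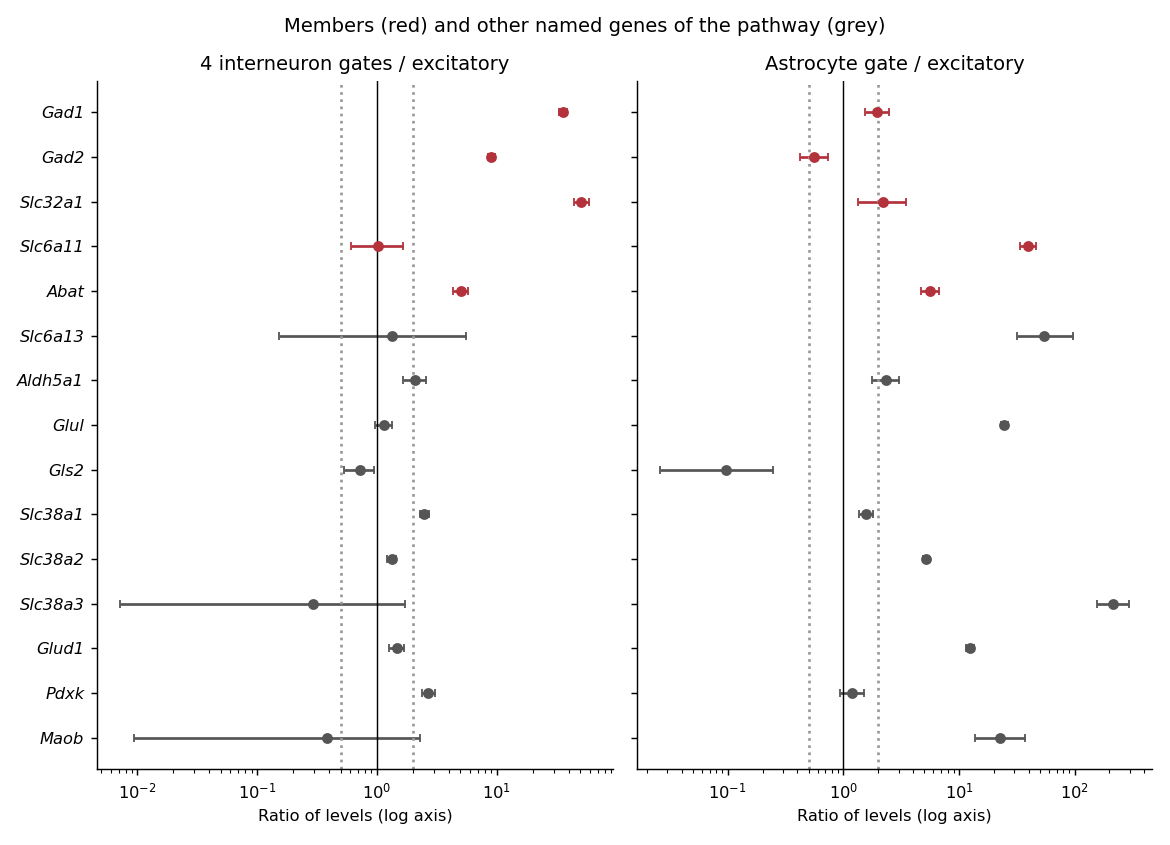
Ratio of levels to excitatory nuclei (log axes) for the pooled interneuron gates (left) and the astrocyte gate (right), with 95% counting intervals. Members are red and the other pathway genes named in the text grey, and dotted lines mark 2-fold. *Gad1*, *Gad2* and *Slc32a1* stand right of the line for interneurons, *Slc6a11* for astrocytes and *Abat* for both. *Slc32a1* lies right of it for astrocytes too, at 2.22 on 21 UMIs.

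Likeness to each member was measured by Pearson's r of log2(level + 0.1) over the 10 gates, among 10251 genes with at least 200 UMIs, with the members and the gate markers left out of the ranking, as a description, since gates share libraries and differ in depth. Among the members themselves, r was 0.946 between *Gad1* and *Gad2* and 0.937 between *Gad1* and *Slc32a1*. Of the other genes, those most like *Gad1* were *Erbb4* (r = 0.947), *Kcnip1* (0.945) and *Nt5m* (0.923), and those most like *Gad2* were *Kcnip1* (0.957), *Frmpd4* (0.945) and *Cntnap2* (0.938). Outside the members, *Slc32a1* was most like *Gjd2* (0.954), *Rpp25* (0.942) and *Kcnip1* (0.921). *Slc6a11* was most like the astrocyte genes *Fgfr3* (0.947), *Scara3* (0.946) and *Dio2* (0.935). Among the 3 genes most like *Abat* were *Fhl1* (0.900) and *Cntfr* (0.897).

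The ATAC-Seq table of reference regions held 1801883 to 2256073 reads per sample. Regions were tested across the whole table with edgeR's quasi-likelihood test and Benjamini-Hochberg adjustment, on 40338 regions that passed the filter on low counts. Within 20 kb of a member lay 110 regions, of which 26 passed the filter, 6 near *Gad1*, 3 near *Gad2*, 7 near *Slc32a1*, 4 near *Slc6a11* and 6 near *Abat*. Values are CPM, read counts scaled to a common library size, with TMM scaling. In pooled nuclei, more nuclei with an open region and more reads per open nucleus cannot be told apart. Replicates correlated at 0.896 to 0.946 in log CPM and samples of different groups at 0.546 to 0.847. With 2 samples per group, p-values measure the spread between these samples.

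No region near the members was called between SST and PV. Of 26 tested regions, 0 were called between SST and PV at an adjusted p under 0.05 (edgeR), against 8.29% of all regions, and 1 had an unadjusted p under 0.05. DESeq2 also called 0. Between SST and the mean of PV and VIP 1 was called (13.6% of all regions). Between SST and VIP 8 were called, 30.8% against 36.3% of all, and between PV and VIP 10, 38.5% against 49.1% of all. These shares were not above those of all regions. The filter's level was reached in the VIP samples alone by 4 regions and in the SST samples alone by 1, and 11 exceeded it in all 6 samples. Others reached it in both VIP samples and 1 further sample, so that they too passed only with VIP. Those called are named where they come up.

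The start regions of *Gad2* and *Slc32a1* were open in all 3 groups by their read counts. Peaks were marked at both in every sample, except at *Slc32a1* in VIP replicate 1, which held 33 reads there. The region over the *Gad2* start, chr2:22621924-22622869 (promoter and first exon), had 46.5 and 33.5 CPM in SST, 35.4 and 52.0 in PV and 30.0 and 31.2 in VIP. The region over the *Slc32a1* start, chr2:158610356-158611225, had 48.7 and 16.8 in SST, 40.3 and 34.9 in PV and 22.5 and 22.2 in VIP. The groups overlapped for SST and PV at both regions, neither region was called in any contrast, and the SST samples of *Slc32a1* lay further apart than the PV and VIP means.

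The promoter region of *Gad1* held few reads in the deposited counts. The region chr2:70560849-70562643 had 2.86 and 3.10 CPM in SST, 1.39 and 3.88 in PV and 8.17 and 7.21 in VIP. It passed the filter through the VIP samples alone, and the difference between PV and VIP, -1.54 ± 0.60 on the log2 scale (SE), had an adjusted p of 0.0419 (edgeR) that rose to 0.132 with no filter and to 0.231 with DESeq2, and the call held in 3 of 10 alternatives. It was lost without any 1 of the PV and VIP replicates, with adjusted p from 0.0787 to 0.342. Divided by its length in kilobases and averaged over the 6 samples it had 1.80 CPM without TMM scaling, above 18.2% of the 16346 promoters with a region, where the *Gad2* promoter region had 29.3 (above 62.5%), *Slc32a1* 25.9 (59.6%) and *Slc6a11* 5.14 (32.8%). Peaks were marked there in all 6 samples, with deposited -log10 scores of 7.82 to 17.7 on 2 to 12 reads. The next region, chr2:70563278-70563936, which also holds an annotated start, had 9.30 and 18.6 CPM in SST, 10.4 and 16.3 in PV and 14.3 and 10.8 in VIP. It held 13 to 30 reads and was marked as a peak in none of the 6 samples, so that scores and counts at the *Gad1* start did not run together, and the cause was not tested.

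Farther into *Gad1*, an intronic region at chr2:70568049-70568733 was higher in VIP, with 14.3 and 13.2 CPM, than in SST, with 5.01 and 3.10, and PV, with 6.25 and 7.76. SST minus VIP was -1.76 ± 0.49 (adjusted p = 0.00900, edgeR, and 0.0835 with DESeq2). PV minus VIP, at -0.97 ± 0.45, was not called (adjusted p = 0.0827, edgeR). This intronic region reached the filter's level in 3 samples, among them both VIP samples, and passed only with them. Downstream of *Gad2*, chr2:22706241-22706900 was the region called between SST and the mean of PV and VIP. It had 7.16 and 10.5 CPM in SST, 3.47 and 4.66 in PV and 2.04 and 0.601 in VIP, and no values of SST overlapped those of the other groups. SST minus PV, at 1.13 ± 0.55, was not called (adjusted p = 0.214, edgeR). SST minus VIP was 2.73 ± 0.67 (0.00398), a call that held in 6 of 10 alternatives. The region passed through SST alone. SST exceeded the mean of PV and VIP by 1.93 ± 0.51 (adjusted p = 0.0170, edgeR). The call was lost with DESeq2 (0.231), with no filter (0.210), and without SST replicate 2 (0.270), PV replicate 1 (0.0549) or VIP replicate 2 (0.0919). Upstream of *Slc32a1*, chr2:158594961-158595754 had 10.2 and 15.6 CPM in VIP, 2.86 and 4.96 in SST and 2.08 and 5.43 in PV. It passed through VIP alone, and PV minus VIP was -1.80 ± 0.55 (adjusted p = 0.0125, edgeR). The call held in 6 of 10 alternatives and was lost with DESeq2 (0.0923), with no filter (0.0611), and without PV replicate 1 (0.135) or VIP replicate 2 (0.117). Without PV replicate 2 the difference was -2.59.

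Around *Slc6a11*, an intronic region at chr6:114201599-114202426 held 13 and 18 reads in VIP, 1 and 0 in SST and 2 and 1 in PV. This region too passed through VIP alone, was marked as a peak only in the VIP samples, and had an adjusted p of 4.55e-04 for SST against VIP and of 0.00171 for PV against VIP (edgeR). Without VIP replicate 2 these were 0.0685 and 0.141, and without VIP replicate 1 the second was 0.0529. With no filter they were 0.0128 and 0.0229. SST minus VIP, -4.58 ± 0.84, ran to -6.92 without SST replicate 1 and to -3.66 without SST replicate 2, on 1 read in SST in all. Downstream, chr6:114254680-114255546 went the other way, with 50.0 and 49.7 CPM in PV, 26.5 and 31.0 in SST and 9.53 and 16.8 in VIP, the 3 groups in order without overlap. PV minus VIP was 1.90 ± 0.34 (adjusted p = 3.02e-04) and SST minus VIP 1.11 ± 0.35 (0.0190). The first held in all 10 alternatives and the second in 7, with an adjusted p of 0.311 without VIP replicate 1, 0.0876 with DESeq2 and 0.287 with no filter. A further intronic region, chr6:114227202-114227999, had 6.25 and 9.32 CPM in PV, 5.01 and 8.69 in SST and 2.72 and 2.40 in VIP. It reached the filter's level in 2 samples only, replicate 2 of SST and of PV, the groups where it was higher. PV minus VIP was 1.57 ± 0.60 (adjusted p = 0.0394, edgeR). The call held in 3 of 10 alternatives, and was lost with DESeq2 and without any 1 of the PV and VIP replicates, with adjusted p up to 0.337. The start region of *Slc6a11*, chr6:114130729-114131724, had 10.9 and 12.0 CPM in VIP, 3.58 and 7.44 in SST and 3.47 and 4.66 in PV. It reached the filter's level in 3 samples, among them both VIP samples, and passed only with them. PV against VIP was called, with an adjusted p of 0.0267 (edgeR). This call held in 5 of 10 alternatives and was lost with DESeq2 (0.149), with no filter (0.0874), and without PV replicate 1 (0.141), PV replicate 2 (0.0720) or VIP replicate 2 (0.0895). All 3 groups are interneurons, and Sst-, Pvalb- and Vip-gated nuclei held 2, 1 and 6 *Slc6a11* UMIs.

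The region over the *Abat* start, chr16:8513112-8513814, had 61.3 and 61.3 CPM in VIP, 37.9 and 45.3 in SST and 18.8 and 38.8 in PV, with PV minus VIP at -1.10 ± 0.32 (adjusted p = 0.00834), a call lost without PV replicate 1 (0.157, edgeR) and a difference of -1.70 without PV replicate 2. Within the introns of *Abat* 3 regions differed between VIP and both other groups. At chr16:8538937-8539860 the VIP samples had 53 and 57 reads, the SST samples 6 and 16 and the PV samples 6 and 11. SST minus VIP was -2.26 ± 0.42, which is 4.80-fold higher in VIP (adjusted p = 5.08e-04), and PV minus VIP -2.47 ± 0.44, which is 5.55-fold (3.07e-04). Without SST replicate 2 the first was -3.04. At chr16:8540657-8541410 the reads were 53 and 55 in VIP, 10 and 21 in SST and 20 and 13 in PV, with differences of -1.75 ± 0.38 (0.00159) and -1.51 ± 0.37 (0.00324), the second at 0.0527 without PV replicate 2.

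The third intronic region of *Abat*, chr16:8529725-8530555, was lower in VIP instead. It held 2 and 2 reads there, 17 and 15 in SST and 16 and 21 in PV, and 7.90-fold (adjusted p = 0.00141) and 10.1-fold (4.02e-04) fewer in VIP than in SST and PV. The deposited peak marks were present for all 3 regions in both SST samples, PV replicate 2 and VIP replicate 2. In each of the 3 regions no VIP sample overlapped an SST or PV sample. The mean phyloP score over placental mammals, a measure of conservation, was 0.0513 in this region, 0.173 in the region at 8538937 and -0.120 in the one at 8540657, where 11.2% of all regions scored above 0.5.

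The central 200 bases of the 3 *Abat* regions are printed because they carry the VIP difference, with the same words in capitals. The first is the region that was lower in VIP and the other 2 were higher.
chr16:8530040-8530239, +: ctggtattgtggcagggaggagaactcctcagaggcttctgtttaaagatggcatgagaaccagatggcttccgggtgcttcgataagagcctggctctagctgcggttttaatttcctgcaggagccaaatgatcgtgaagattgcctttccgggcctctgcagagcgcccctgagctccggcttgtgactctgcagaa
chr16:8539299-8539498, +: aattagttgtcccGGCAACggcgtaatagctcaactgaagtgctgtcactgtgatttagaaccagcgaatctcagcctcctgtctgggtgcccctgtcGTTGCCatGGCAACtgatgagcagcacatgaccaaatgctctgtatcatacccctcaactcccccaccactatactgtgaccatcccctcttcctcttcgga
chr16:8540934-8541133, +: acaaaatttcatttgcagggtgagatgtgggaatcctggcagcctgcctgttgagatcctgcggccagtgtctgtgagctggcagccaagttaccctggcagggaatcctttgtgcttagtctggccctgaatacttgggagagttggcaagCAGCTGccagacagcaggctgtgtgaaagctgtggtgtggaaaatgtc

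The second of these held GTTGCC or its reverse 3 times, 2 of them facing each other 2 bases apart. This is the arrangement of the X-box bound by RFX factors, and the word was searched after the sequence had been seen. At least 1 GTTGCC was found in the central 200 bases of 8.48% of 323360 regions and 3 or more in 0.0300%. The third held CAGCTG, as did 20.0% of regions, and the first held none of the words.

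**Figure D4:**
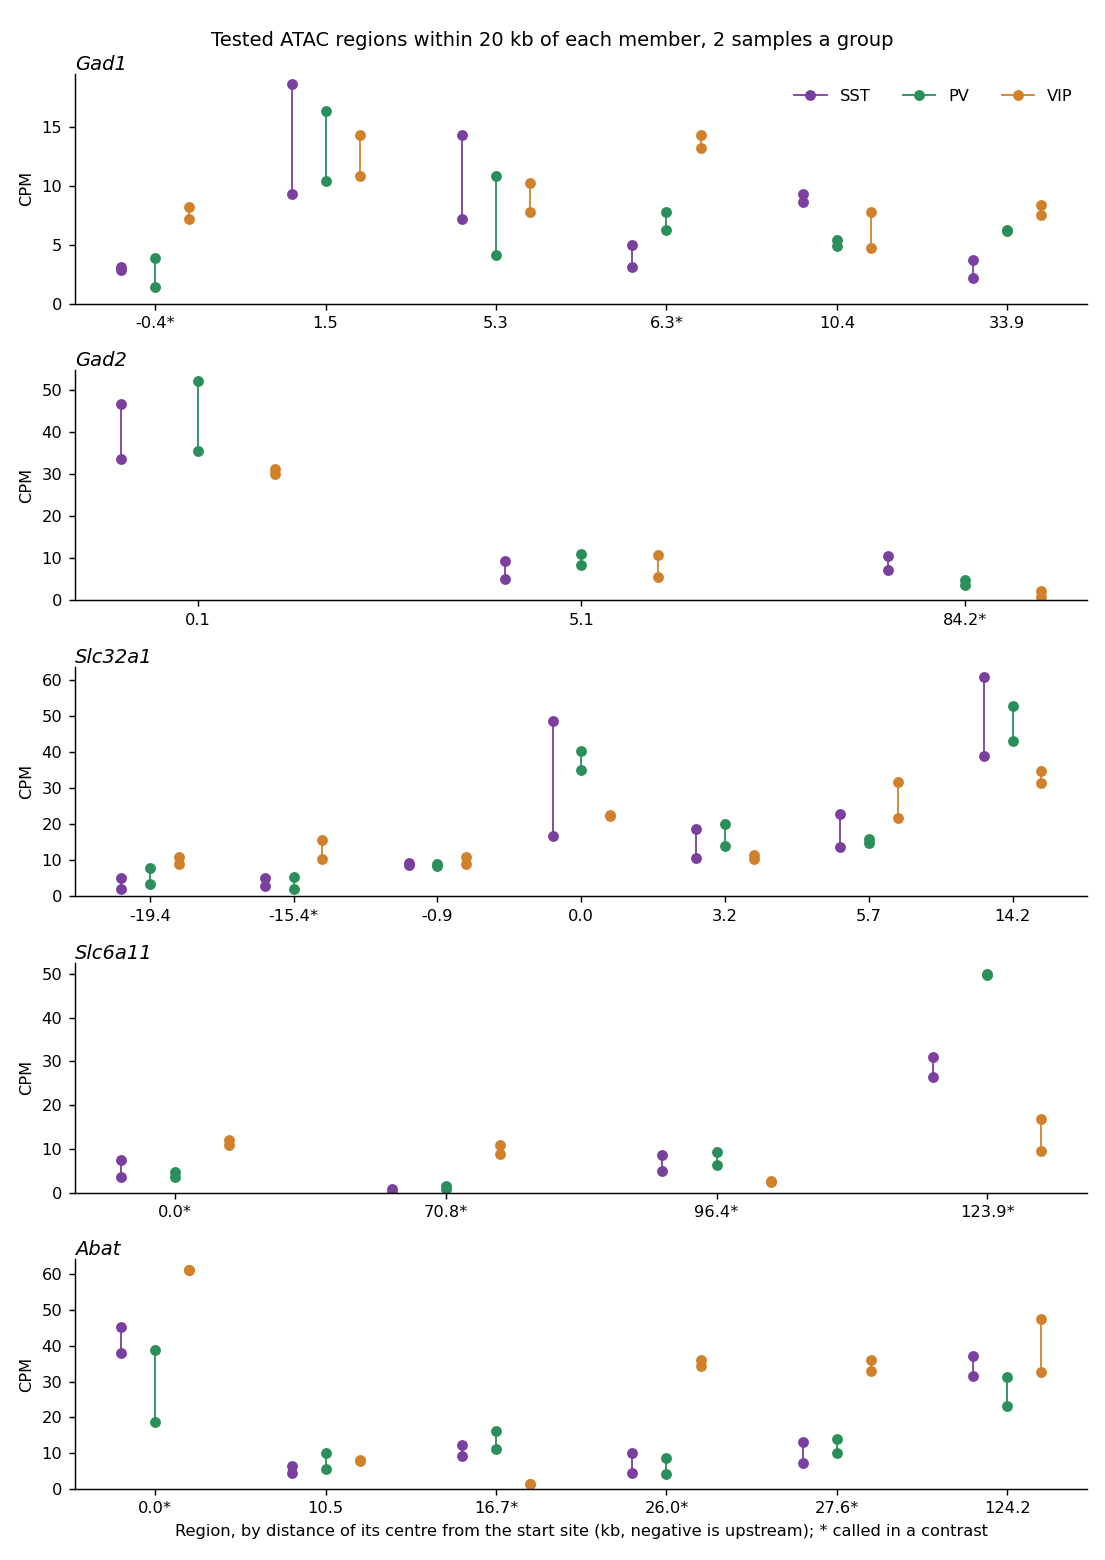
CPM (vertical axes, each with its own scale) of the 26 tested regions within 20 kb of a member, in the 2 samples of SST (purple), PV (green) and VIP (orange), joined by a line. Regions are in genomic order and labelled with the distance of their centre from the start site in kb, not to scale, and * marks those called in a contrast. The VIP samples of *Abat* lie above the others at the regions centred 25969 and 27604 bases from the start and below them at 16711 bases.

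Summed over all regions within 20 kb of a gene, accessibility differed for *Abat* and for none of the other members. CPM of sums are scaled to the total of all gene windows, in which a region near several genes counts several times. They are therefore not on the scale of the CPM of single regions. A sum also holds regions outside the gene, and which gene such regions serve was not tested. In the *Slc32a1* sum, chr2:158624555-158625385, downstream of the gene, held 85 and 63 reads in SST, against 68 and 27 in the start region. The *Abat* sums were 97.0 and 109 CPM in VIP, 62.0 and 68.3 in SST and 53.6 and 69.5 in PV. SST minus VIP was -0.66 ± 0.16 (adjusted p = 0.0129, edgeR over 18248 genes) and PV minus VIP -0.74 ± 0.16 (0.00375). The other 4 members had differences between -0.43 and 0.30 on the log2 scale, with adjusted p from 0.124 upward. Between SST and VIP 20.9% of all genes were called and between PV and VIP 38.2%, so that 1 of 5 members was at or under the background. Between SST and PV 0 of 5 were called (0.214% of all genes), and between SST and the mean of PV and VIP 0 of 5 (1.04%), by edgeR and by DESeq2, with 1 and 0 members at an unadjusted p under 0.05 by edgeR. Without VIP replicate 2 no member was called in any contrast by edgeR.

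Of the 16 further genes 15 could be tested. Between SST and VIP 1 was called higher in SST and 2 lower, where 20.9% of all genes were called. Between PV and VIP 3 were higher in PV and 2 lower, where 38.2% of all genes were called. The shares of the 15 genes were not above these. *Slc38a3* was higher in VIP, at 62.3 and 60.3 CPM, than in SST, at 37.7 and 45.7, and PV, at 35.2 and 42.7 (SST minus VIP -0.55 ± 0.18, adjusted p = 0.0395, edgeR). *Aldh5a1* and *Aldh9a1* were lower in VIP than in PV, with PV minus VIP at 0.56 ± 0.20 and 0.79 ± 0.21 (adjusted p = 0.0396 and 0.0112, edgeR).

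**Figure D5:**
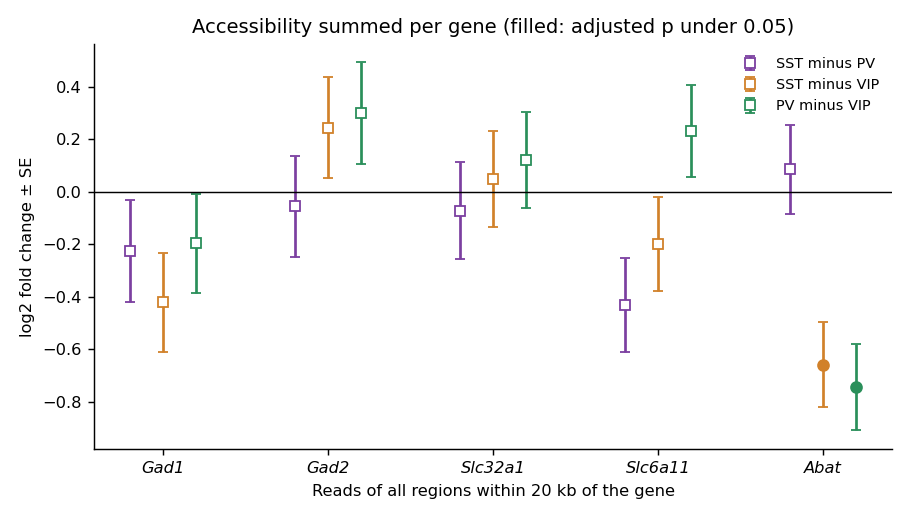
Difference in accessibility summed over all regions within 20 kb of each member, as log2 fold change with its SE (vertical axis), for SST minus PV, SST minus VIP and PV minus VIP, with 2 samples per group. Filled points have an adjusted p under 0.05, and only the 2 *Abat* contrasts with VIP are filled, at -0.66 and -0.74.

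The RNA level of *Abat* was 1.56 (1.24 to 1.94) in Sst-gated, 2.06 (1.51 to 2.75) in Vip-gated and 2.61 (2.05 to 3.27) in Pvalb-gated nuclei, where the counting intervals of Sst- and Pvalb-gated nuclei did not overlap but their library ranges did, and those of Vip-gated nuclei overlapped both. Its summed accessibility was higher in VIP than in SST and PV, as given above. *Gad1*, whose RNA was 2.51-fold lower in Sst-gated nuclei than in the other interneuron gates, had summed accessibility of 28.1 and 35.2 CPM in SST, 35.2 and 39.0 in PV and 42.1 and 42.9 in VIP, with SST minus VIP at -0.42 ± 0.19 (adjusted p = 0.124). The nuclei came from V1 of injected mice and the ATAC-Seq samples from whole cortex of uninjected mice, and the values are set side by side only.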

How the data were processed

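Nuclear RNA came from 1 sample read as 10 libraries and ATAC-Seq from 6 samples, 2 each of SST, PV and VIP. The deposited UMI tables hold raw counts per barcode and gene, which the authors made from inDrops reads. The authors trimmed ATAC reads (Trimmomatic 0.33), aligned them to GRCm38/mm10 (Subread 1.4.6-p3) and counted them over reference regions, so these deposited values are raw counts too. The reference regions were a union over cortical experiments that included other drivers. The deposited phyloP column is a mean conservation score per region, and the peak lists give a MACS2 -log10 score from the authors, pooled over no samples. A deposited table of screened elements, which holds the authors' own fold comparisons, was not used.

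Barcodes with more than 200 UMIs outside 1164 viral columns were kept and gated at 2 UMIs or more. Nuclei in more than 1 gate were left out, and no doublet caller was run. Genes were set beside a 2-fold limit when they had at least 20 UMIs over both sides. Region counts were tested with edgeR 4.0.16 (TMM, filterByExpr, quasi-likelihood) and, as an alternative, DESeq2 1.42.0 in R 4.3.3, with Benjamini-Hochberg adjustment at 0.05. The SE is the log2 fold change over the square root of F. On simulated counts over 40338 regions, for the contrast of SST with PV and VIP averaged, 25.0% of 68 regions changed by 1 log2 unit were recovered, 83.8% of 68 changed by 2 and 89.1% of 64 changed by 3. Named were the members, the pathway genes past 2-fold, the 3 genes most like each member, and regions at a start or called in a contrast. Members were chosen by name, by a rule without measured values, but members, lists and tests were set with earlier results of these data known. Alternatives covered gate and UMI limits, scaling, filter, windows, each replicate left out and a replicate block. Distances are from the RefSeq or annotated start, and *Gad1* has an annotated transcript that starts farther upstream. Cellular UMI counts per library were 2496224 to 3041931, and intervals cover counting error only. Results of some genes of the pathway list are not reported here.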

Additional observations from a re-analysis of the deposited data

Results flagged for a closer look

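In 55 sets of 10 libraries, 1 for each gene and gate or group, the highest and the lowest library were each compared with the others. A set in which only 1 library was above 0 is set apart by construction, as for *Slc6a11* in Pvalb-gated nuclei. The number of sets set apart, always by the highest library, was therefore not read against chance. Most of the libraries set apart were in gates with few UMIs of the gene. The *Gad1* level in Vip-gated nuclei was 29.0 in library 1-4, with the next at 22.9. In OPC nuclei of library 2-3, *Gad1* was 25.3, *Gad2* 16.2 and *Slc32a1* 2.02, and 1 nucleus held 76.2% of all *Gad2* UMIs of that gate. *Gad2* was 2.60 in oligodendrocyte nuclei of library 1-5 and 2.32 in vascular nuclei of library 2-1, where *Slc32a1* was 0.930. *Slc6a11* was 1.56 in Npy-gated nuclei of library 1-1, 0.226 in Pvalb-gated nuclei of library 2-2, 5.37 in OPC nuclei of library 2-4, 1.76 in microglial nuclei of library 2-3 and 1.18 in vascular nuclei of library 1-3.

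Barcodes outside the comparisons also held UMIs of the members. In the 8865 nuclei that passed no gate, levels per 10000 UMIs were 4.11 for *Gad1*, 2.57 for *Gad2*, 1.21 for *Slc32a1*, 0.205 for *Slc6a11* and 0.740 for *Abat*. In the 2856 nuclei of more than 1 gate they were 2.87, 2.29, 0.930, 0.439 and 0.728 in the same order. In the 15013 barcodes with 200 or fewer UMIs they were 3.14, 1.55, 0.670, 0.720 and 0.725.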

How the results depend on the processing

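Of 298 alternative values of the main results, 270 were counted as the same, and 0 values past 2-fold or past the test changed direction. Ratios of levels counted as the same on the same side of the threshold or within 1 SD of the libraries. Counts of regions or genes called did so when equal to the main count or within a set factor of it. The ratio of *Gad1* in Vip-gated nuclei to the other interneuron gates, 1.02, fell below 1 in library set 2 (0.918), without library 1-2 (0.989), without library 1-4 (0.978) and without shared barcodes (0.972). With nuclei put back into each gate they passed, the interneuron to excitatory ratios moved to 17.1 for *Gad1*, 6.51 for *Gad2*, 20.7 for *Slc32a1* and 3.76 for *Abat*, and the astrocyte to excitatory ratios to 10.7 for *Slc6a11* and 2.57 for *Abat*. *Slc6a11* moved to 21.9 with more than 500 UMIs per nucleus. The causes were not tested. Regions called between SST and the mean of PV and VIP (1) were 0 with DESeq2, with no filter and within 5 kb, and 0 to 3 with each replicate left out. Between SST and PV (0) they were 0 to 1 with each replicate left out, the 1 without SST replicate 1. Between SST and VIP (8) they were 4 with DESeq2, 5 with no filter, 13 within 50 kb and 5 to 13 with each replicate left out. Between PV and VIP (10) they were 6 with DESeq2, 6 with no filter, 16 within 50 kb and 5 to 15 with each replicate left out. Members called by summed reads (1) were 3 within 50 kb and 0 to 2 with each replicate left out. Replicate numbers did not pair the samples, with correlations of deviations of 0.0233, 0.0297 and -0.0366, and with a replicate block the counts of regions were 1, 0, 8 and 8. The block took away the calls of the *Gad1* start region (adjusted p = 0.0763) and the *Slc6a11* intron at chr6:114227202-114227999 (0.0507, edgeR). Of 214 alternative values of single regions and sums, 165 kept their call and 49 lost it. The *Abat* intronic regions at chr16:8529725-8530555 and chr16:8538937-8539860 kept both calls in all 10 alternatives.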
